A study of Mus musculus with 18 samples.

Results

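The 10 genes described here belong to the mouse epidermal growth factor (EGF) family of ligands and receptors: 7 ligand genes (Ereg, Areg, Hbegf, Tgfa, Btc, Egf and Nrg1) and 3 receptor genes (Egfr, Erbb2 and Erbb3). They were chosen by symbol, with earlier results of these data known. They are covered by 27 of 41109 gene probes, or 10 of 19719 named features. RNA of C57BL/6 mice was hybridised to 18 one-colour arrays in 6 groups of 3. The groups were mouse embryonic fibroblasts (MEF), hepatocyte-like cells induced from them (iHep) and 4 kinds of intestinal organoid. Budding organoids had been grown from induced intestinal stem cells (group iISC) or, as the native counterpart, adult crypts (group crypt). Spherical and budding organoids together had been grown from induced fetal progenitors (group iFIPC) or, as the native counterpart, fetal intestine (group FI). The series as a whole concerns making intestinal progenitors from fibroblasts, so the comparisons ask how far the induced cells left the fibroblast pattern and how they stood beside the native organoids. Culture media, the induction factors and whether replicates came from separate cultures or animals are not given in the sources used here, so p-values measure only the spread between these samples, which may be technical.

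EGF family ligands are made as membrane-bound precursors and released by metalloproteases such as Adam17. They bind receptor tyrosine kinases that work as pairs: Egfr binds Egf, Areg, Ereg, Hbegf, Tgfa and Btc, Erbb3 binds neuregulins but has little kinase activity of its own, and Erbb2 has no known ligand and serves as a partner. In the intestine, EGF signalling drives growth of the crypt epithelium, and EGF is a usual additive of organoid medium.

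Sequences are shown for the ligand that rose most, Areg, and for a transcript that shares a gene name with Ereg. The Areg promoter (RefSeq, GRCm38.p6, chr5:91139349-91139648, plus strand) carries a cyclic AMP response element, TGACGTCA, shown in capitals. The window is 300 bases long and runs past the start site. The element begins 61 bases before the start site:
Areg promoter: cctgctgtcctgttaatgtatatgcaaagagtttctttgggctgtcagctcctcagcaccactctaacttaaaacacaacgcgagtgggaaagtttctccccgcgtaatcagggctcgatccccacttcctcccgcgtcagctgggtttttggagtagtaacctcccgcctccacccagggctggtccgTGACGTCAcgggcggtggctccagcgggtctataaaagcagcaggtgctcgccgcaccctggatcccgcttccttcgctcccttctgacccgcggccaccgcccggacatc
This motif, which reads the same on both strands, occurred in 588 of 32851 RefSeq promoter windows of that length (1.79%). Promoter entries were matched for 6 of the members (7 entries), and Areg was the one member among them with this element. The match is a description of the letters and not of a bound site. The other letters searched on both strands were the AP-1 motif TGANTCA (7.81% of windows), the GC box GGGCGG (35.7%) and the TEAD motif GGAATG (14.7%). None of the 7 entries held TGANTCA. The GC box occurred in the windows of Areg, Tgfa and Egfr, and GGAATG in that of Erbb2. The Areg probe (NM_009704; mm9 chr5:91570090-91570149, plus strand) and the second probe that the files call Ereg (AK019057; mm9 chr5:91480914-91480973, minus strand) read:
Areg probe: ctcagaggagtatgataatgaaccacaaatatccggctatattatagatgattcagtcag
AK019057 probe: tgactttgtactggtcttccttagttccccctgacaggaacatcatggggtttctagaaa
The AK019057 probe lies 40686 bases from the RefSeq Ereg probe (NM_007950) and on the opposite strand, while the RefSeq Ereg gene is 19033 bases long. It was therefore treated as a transcript of its own, and Ereg was read from the NM_007950 probe.

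A level below is log2 of the processed signal minus the array's 75th percentile, so 0 is the 75th percentile and 1 unit is a doubling. Levels of different probes are not compared. MEF arrays 2 and 3 differed by less than other within-group pairs (spread of 0.119 log2 over 19923 probes, against 0.238 to 0.683, with 0.087 expected from spot noise alone) and were counted as 1 sample, which leaves 17 samples and n = 2 for MEF. The organoid arrays come from a later scanner model and software version than those of MEF and iHep. The 7 spike-in controls, set against each array's 75th percentile, were 0.52 to 1.20 log2 brighter on the MEF and iHep arrays. Array set and the difference between fibroblasts and organoids thus cannot be told apart. A change counted as called when it reached 1 log2 unit with an adjusted p (limma, Benjamini-Hochberg over all tested genes) below 0.05. The labelled cell types were checked against their markers. Of 8 epithelial markers, Cdh1, Epcam and Vil1 were well above background on no MEF array, while the other 5 were so on every MEF array. The mean of the 8 was -4.19 to -3.85 in MEF samples and 4.24 to 5.07 in iHep samples. All 8 were well above background on every organoid array, and all 5 hepatocyte markers were so on every iHep array. The mean of 9 mesenchymal markers was 5.75 to 6.08 in MEF samples and 1.31 to 2.72 in iHep samples. It was -5.97 to -5.61 in iISC, -6.62 to -6.45 in crypt and -6.69 to -4.09 in FI organoids. In iFIPC organoids it ran from -5.05 (iFIPC 3) to -1.60 (iFIPC 2), and all 9 markers were well above background on at least 1 iFIPC array. Pdgfra, Dcn and Lum were so on no iISC, crypt or FI array. All 4 blood and immune markers (Ptprc, Csf1r, Cd68 and Cd3e) were well above background on every MEF array. Their mean was -2.16 to -1.62 in MEF samples and -5.62 to -4.19 in iHep samples. Ptprc was well above background on no iHep, iISC, crypt or FI array. The MEF arrays thus also carried signal of blood and immune markers. In these bulk samples fewer cells of a type and less RNA per cell cannot be told apart.

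**Figure D1:**
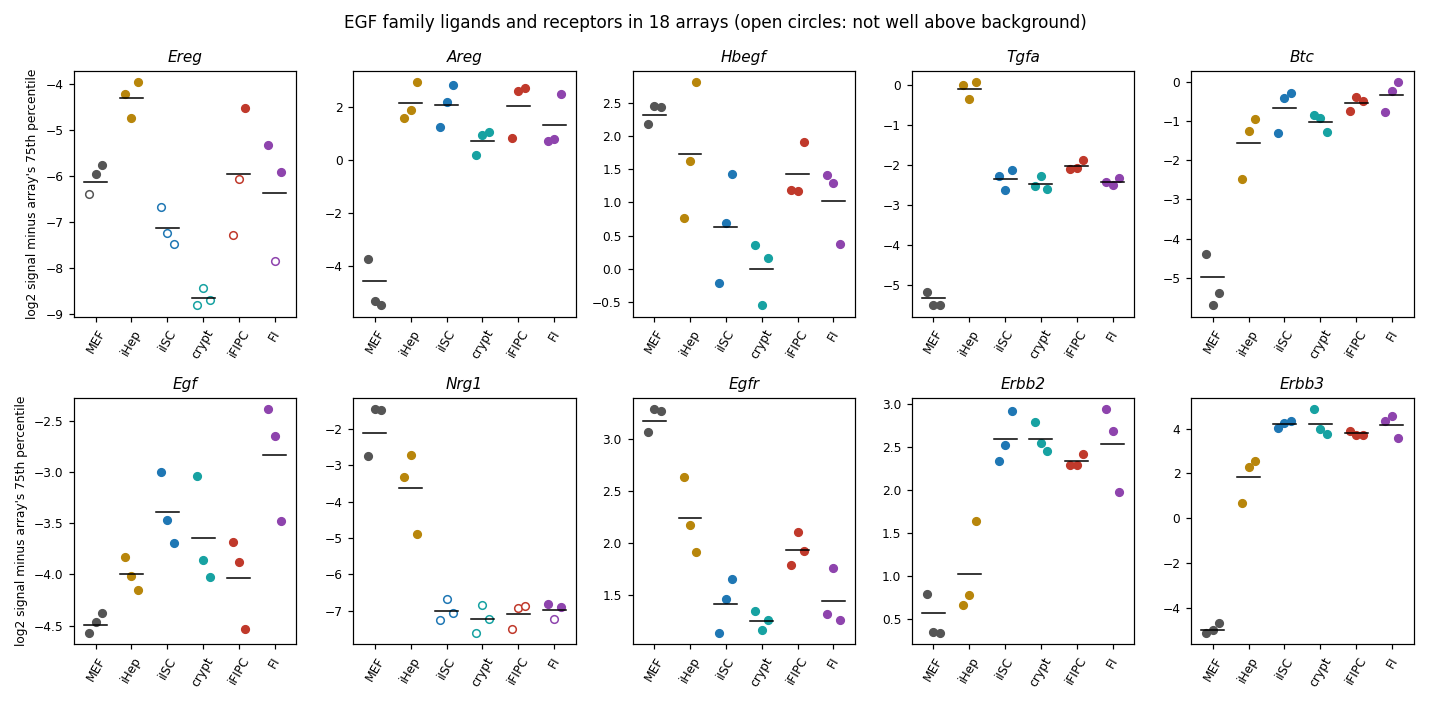
Levels of the 10 genes (vertical axes, log2 signal minus the array's 75th percentile) on the 18 arrays by group; lines are group means over samples, with MEF 2 and 3 averaged. Areg, Tgfa, Btc and Erbb3 lie lowest in the 3 MEF arrays, whereas Egfr lies highest there.

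Fibroblasts and the cells induced from them differed in both ligands and receptors. In iHep cells 4 members rose (Areg, Tgfa, Btc and Erbb3) and 1 fell (Nrg1) of 10 tested, where 11.8% of all genes rose, 15.8% fell and 27.7% did either. In iISC organoids 6 rose (Areg, Tgfa, Btc, Egf, Erbb2 and Erbb3) and 3 fell (Egfr, Hbegf and Nrg1) of 9 tested, where 23.1% of all genes rose, 25.4% fell and 48.5% did either. In iFIPC organoids 5 rose (the same without Egf) and 2 fell (Egfr and Nrg1) of 9 tested, where 20.2% of all genes rose, 23.3% fell and 43.5% did either. The median change of the members was 1.16, 2.03 and 1.77 log2, beside -0.11, -0.01 and -0.03 over all genes. The 3 comparisons share the MEF samples. Ereg had no group well above background on every array in the organoid comparisons and was not tested there.

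**Figure D2:**
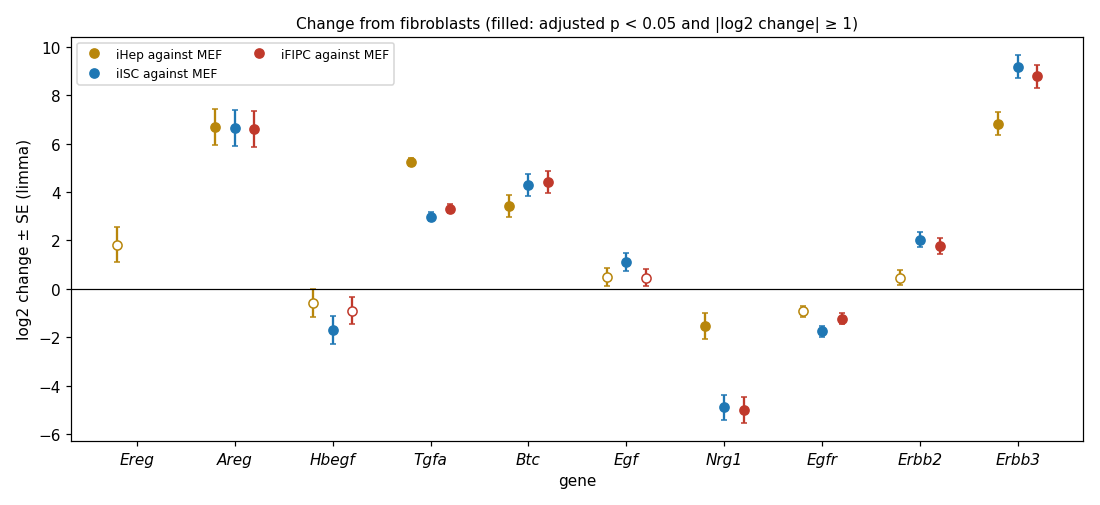
Log2 change from MEF with its standard error (limma) for each gene in iHep cells, iISC organoids and iFIPC organoids. Erbb3 shows the highest points (6.84 to 9.20) and Nrg1 the lowest (-5.00 to -1.54, the organoid points being fitted values against a signal not well above background); Ereg has a point for iHep cells alone.

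Amphiregulin, Areg, a ligand of Egfr, was at -3.73, -5.31 and -5.49 on the 3 MEF arrays. It was at 1.59, 1.88 and 2.94 in iHep cells, and at 1.25, 2.17 and 2.82 in iISC organoids. Crypt organoids had 0.19, 0.93 and 1.06, iFIPC organoids 0.81, 2.58 and 2.71, and FI organoids 0.69, 0.80 and 2.49. Every sample outside MEF thus lay above every MEF array, and all other neighbouring groups in the order of means overlapped. The rise over MEF was 6.70 ± 0.74 (SE) log2 in iHep cells (adjusted p = 1.26e-05), 6.64 ± 0.74 in iISC organoids (4.34e-06) and 6.60 ± 0.74 in iFIPC organoids (5.87e-06) by limma. On the slide that iHep cells shared with MEF 1 the iHep difference was 5.86. The rise in hepatocyte-like cells was thus within 1 standard error of that in either kind of organoid.

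Transforming growth factor alpha, Tgfa, another Egfr ligand, separated iHep cells from all other groups on its brighter probe. The MEF arrays read -5.16, -5.50 and -5.51, and the iHep arrays 0.00, -0.36 and 0.08. The 12 organoid samples lay between -2.62 and -1.87. The rise over MEF was 5.24 ± 0.18 log2 in iHep cells (adjusted p = 2.78e-10 by limma), 2.99 ± 0.18 in iISC organoids (1.35e-08) and 3.32 ± 0.18 in iFIPC organoids (6.56e-09). A dimmer probe of the same RefSeq transcript gave 3.82 ± 0.47, 3.50 ± 0.47 and 3.29 ± 0.47 log2. Its group means were -2.96 in iHep cells, -3.28 in iISC organoids (SD 0.93) and -3.48 in iFIPC organoids (SD 0.64). The extra height of iHep cells there was less than the SD of either kind of induced organoid.

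Betacellulin, Btc, which binds Egfr and the Erbb4 receptor, was at -4.40, -5.71 and -5.38 in MEFs and between -2.47 and 0.00 in every other sample. It rose by 3.41 ± 0.46 log2 in iHep cells (adjusted p = 6.03e-05 by limma), 4.30 ± 0.46 in iISC organoids and 4.43 ± 0.46 in iFIPC organoids. Within the shared slide the iHep difference was 2.84, and with slide as a term it was no longer called (adjusted p = 0.091). A second Btc probe was well above background on 1 of 18 arrays and gave no test.

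Egf itself was a dim probe with little range. The MEF arrays were at -4.57, -4.46 and -4.38, iHep cells at -3.83, -4.02 and -4.15, and iISC organoids at -3.0, -3.47 and -3.70. Crypt organoids were at -3.04, -3.86 and -4.03, iFIPC organoids at -3.68, -3.88 and -4.54, and FI organoids at -2.39, -2.65 and -3.48. Only the rise in iISC organoids over MEF was called among the 3 fibroblast comparisons (1.11 ± 0.36 log2, adjusted p = 0.0158 by limma). The call was lost without MEF 1 (adjusted p = 0.0823), without iISC 1 (0.0569) and with normexp background correction (0.32 log2, adjusted p = 0.221).

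Heparin-binding EGF-like growth factor, Hbegf, moved the other way. The MEF arrays read 2.19, 2.46 and 2.44, and the iHep arrays 0.76, 1.63 and 2.82. Organoid samples ran from -0.55 in a crypt sample to 1.92 in iFIPC 3. It fell by 1.69 log2 in iISC organoids (SE 0.57, adjusted p = 0.019 by limma). Leaving out MEF 1, the averaged MEF 2 and 3 or iISC 1 ended that call (adjusted p = 0.0561, 0.0931 and 0.0734), as did median scaling (0.0939). The differences in iHep cells (-0.59 ± 0.57) and iFIPC organoids (-0.90 ± 0.57) were not called.

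Neuregulin 1, Nrg1, a ligand of Erbb3, was highest in fibroblasts and next highest in iHep cells. It read -2.74, -1.45 and -1.47 on the MEF arrays, with -3.32, -2.71 and -4.88 for iHep. In organoids the probe was well above background on 2 FI arrays and on none of the iISC, crypt or iFIPC arrays. MEFs were at least 16.2-fold above iISC organoids (adjusted p = 2.89e-06 by limma) and at least 21.9-fold above iFIPC organoids (3.03e-06), where the bound uses the lowest signal well above background on each dim array. In iHep cells it fell by 1.54 log2 (SE 0.53, adjusted p = 0.0304), but MEF and iHep samples overlapped, and the call was lost without iHep 3 (-0.92, adjusted p = 0.0853) or without MEF 2 and 3 (-0.90, 0.299). The same -0.90 was the difference within the shared slide. The 3 probes of the RefSeq transcript NM_178591 fell by 2.86, 2.52 and 2.32 log2 in iHep cells, each called when all probes were tested on their own. The AK083943 probe differed by -0.91 and was not called (adjusted p = 0.228). Of the NM_178591 probes, 2 were well above background in iFIPC 3 and on no other organoid array. That sample had the lowest mean of the mesenchymal markers among the iFIPC samples (-5.05). Dcn (-3.65) and Col3a1 (-4.84) were among the markers well above background there, while Pdgfra, Thy1 and Lum were not. The source of the Nrg1 signal in iFIPC 3 was not tested.

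Epiregulin, Ereg, an Egfr ligand, was dim everywhere and highest in iHep cells. Its levels were -4.21, -4.73 and -3.95 in iHep cells and -6.40, -5.96 and -5.76 in MEFs. The difference of 1.83 ± 0.74 log2 was not called (adjusted p = 0.0592 by limma). In organoids it was well above background in iFIPC 3 (-4.52), FI 1 (-5.33) and FI 3 (-5.91), and in no iISC or crypt sample. Under quantile normalisation and in the authors' deposited series values the iHep difference was called (1.93 log2, adjusted p = 0.0391, and 1.92, 0.0392). With MEF 2 and 3 as separate samples it was called too (1.74, 0.0338). With normexp background correction it was 0.41 log2 (adjusted p = 0.0711) and not called.

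Among the receptors, Erbb3 had the largest differences of all members. Its levels were -5.13, -4.99 and -4.71 in MEFs, 0.70, 2.30 and 2.55 in iHep cells, and between 3.60 and 4.87 in the 12 organoid samples. No iHep sample reached any organoid sample, and no MEF array any iHep sample. The rise over MEF was 114-fold in iHep cells (6.84 ± 0.47 log2, adjusted p = 1.7e-07 by limma), 587-fold in iISC organoids (9.20 ± 0.47, 3.11e-09) and 442-fold in iFIPC organoids (8.79 ± 0.47, 6.07e-09). The shared slide gave 6.98 log2 for iHep cells. These values come from the brightest probe (BC049279). The 4 probes of NM_010153 were well above background on no MEF array, so their fitted rises in iISC organoids, 2.81 to 4.43 log2, are no measure of the full size. None of the 4 was well above background on every iHep array, so the tested iHep rise rests on the BC049279 probe alone. Untested, A_51_P342050 and A_51_P414813 were well above background on 2 iHep arrays each and A_51_P488243 on 1. Their iHep means were -5.33, -5.43 and -6.16, beside -8.10, -7.83 and -8.46 in MEFs.

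Erbb2 rose in organoids, while its difference in iHep cells was not called. It was at 0.79, 0.35 and 0.34 in MEFs, 0.67, 0.78 and 1.64 in iHep cells, and 1.98 to 2.94 in organoids. The rise over MEF was 2.03 ± 0.31 log2 in iISC organoids (adjusted p = 7.96e-05 by limma) and 1.77 ± 0.31 in iFIPC organoids (0.000298). The iHep difference was 0.46 ± 0.31 (adjusted p = 0.253). A second probe gave 1.26, 1.15 and 0.34 log2 in that order of groups.

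Egfr was highest in the fibroblasts. Its levels were 3.07, 3.29 and 3.27 in MEFs, 2.64, 2.17 and 1.91 in iHep cells, 1.13, 1.46 and 1.65 in iISC organoids, and 1.78, 2.10 and 1.92 in iFIPC organoids. Crypt samples were at 1.34, 1.16 and 1.25 and FI samples at 1.31, 1.76 and 1.25. It fell by 1.76 log2 in iISC organoids (SE 0.22, adjusted p = 1.29e-05 by limma) and by 1.24 in iFIPC organoids (SE 0.22, 0.000309). With median scaling the latter was -0.88 and under the fold threshold. The iHep change of -0.93 ± 0.22 passed the p threshold (0.00429) and not the fold threshold, which it did pass without iHep 1 (-1.13) or without MEF 1 (-1.04). Of the 6 Egfr probes, 5 were well above background on all 18 arrays. They fell by 1.17 to 2.19 log2 in iISC organoids. In iFIPC organoids 3 of these 5 were called, and A_51_P392242 (-0.95) and AK033431 (-0.97) were not. In iHep cells 2 of the 5 were called, AK033431 (-1.59) and A_52_P56471 (-1.05). AK049452 was above background on none.

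**Figure D3:**
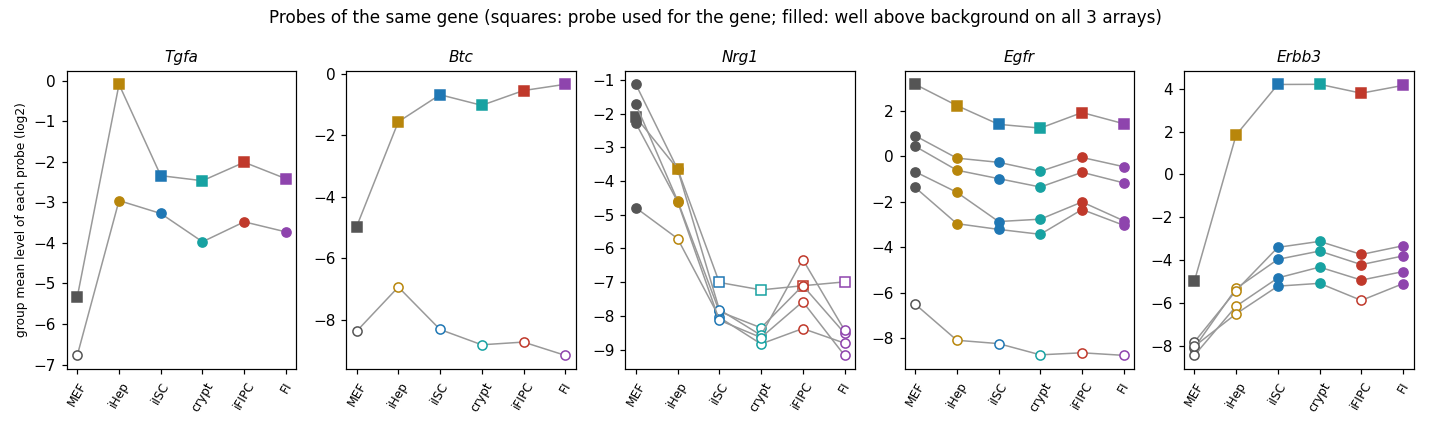
Group mean level (log2) of each probe of Tgfa, Btc, Nrg1, Egfr and Erbb3; lines join the groups of 1 probe, squares mark the probe read for the gene, and open symbols were not well above background on all 3 arrays of the group. Probes of Nrg1, Egfr and Erbb3 keep the same order of MEF and organoids, and the lower Btc probe stays near background in all groups.

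Between organoids grown from induced cells and those grown from native tissue few members were called, as were few of all genes. No slide held arrays of both iISC and crypt organoids, or of both iFIPC and FI organoids. Slide and these differences thus cannot be told apart directly. With slide as a term, the differences rest on slides linked through the other organoid groups. Of the 8 tested, limma called none between iISC and crypt organoids, with none at an unadjusted p under 0.05, against 3.26% of all genes called. It called 1 between iFIPC and FI organoids, Egf, which fell, where 5.02% of all genes fell and 10.7% changed either way. The members ranged from -0.01 (Erbb3) to 1.35 (Areg) in the former and from -1.19 (Egf) to 0.71 (Areg) in the latter. No count test was possible on intensities, and for iISC against crypt organoids every other setting called 0 members too, except that AK019057 was called when read as Ereg.

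Areg was 1.35 ± 0.64 log2 higher in iISC than in crypt organoids, with no overlap between the samples given above, but the adjusted p was 0.263 by limma. Leaving out each sample in turn gave 0.98 to 1.77. With slide as a term the difference was 0.27. Erbb2 and Erbb3 differed by -0.01 ± 0.24 and -0.01 ± 0.30 log2.

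Egf fell by 1.19 log2 in iFIPC below FI organoids (SE 0.36, adjusted p = 0.0393 by limma). The groups did not overlap, as the highest iFIPC sample was at -3.68 and the lowest FI sample at -3.48. The call was lost without iFIPC 2, iFIPC 3, FI 1 or FI 2 (adjusted p = 0.0724, 0.122, 0.116 and 0.121). With slide as a term the difference was -0.37 (adjusted p = 0.811). Tgfa and Egfr were higher in iFIPC organoids, by 0.41 ± 0.14 and 0.49 ± 0.17 log2, at adjusted p of 0.0615 and 0.0602.

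The stage of the source, adult or fetal, was compared within native and within induced organoids. Of 8 tested members limma called none between crypt and FI organoids, against 9.03% of all genes, and none between iISC and iFIPC organoids, against 7.9%. At an unadjusted p under 0.05 there were 2 in each, Btc and Hbegf in the former and Egfr and Tgfa in the latter. Hbegf was lower in crypt than in FI organoids by a difference of -1.04 ± 0.44 log2 (adjusted p = 0.137), and -0.67 within the slide that crypt 1 and the FI samples share. Btc differed by -0.68 ± 0.28 (adjusted p = 0.127), and by -0.52 within that slide. Egfr was at -0.52 ± 0.17 in iISC relative to iFIPC organoids (adjusted p = 0.0734), and at -0.68 against iFIPC 2 on their shared slide. The difference between the stage change in induced and in native organoids was called for none of the 8 (5.3% of all genes); Egf, at 1.44 ± 0.52 log2 (adjusted p = 0.106), was the 1 gene with an unadjusted p under 0.05.

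**Figure D4:**
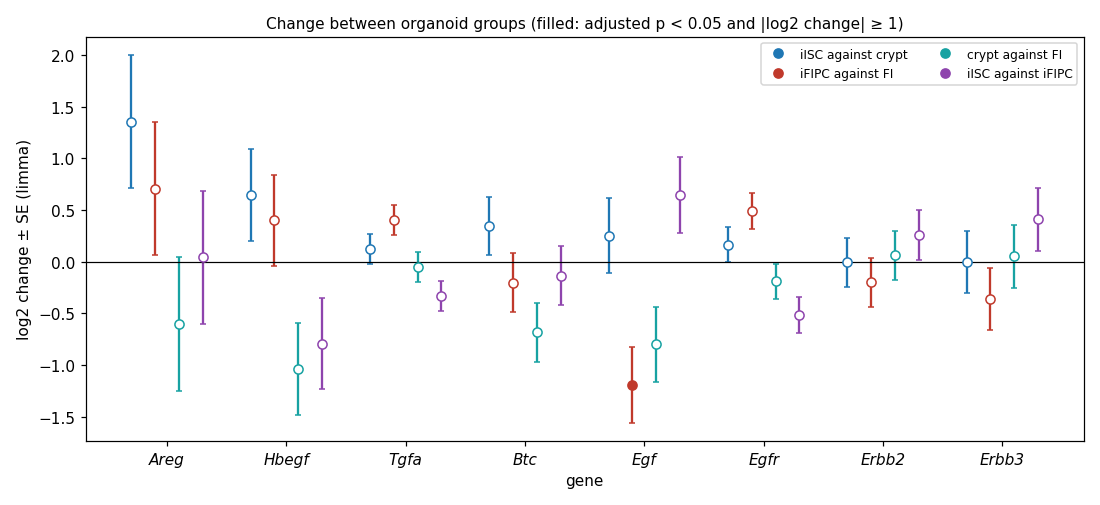
Log2 change with its standard error (limma) for the 8 members tested in 4 comparisons between organoid groups. All points lie between -1.19 and 1.35, and the filled point is Egf in iFIPC against FI organoids.

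Other genes of the family were read in the same way. Epigen, Epgn, an Egfr ligand encoded beside Ereg, was 1.77 ± 0.44 log2 higher in iFIPC than in FI organoids (adjusted p = 0.0184 by limma). Its highest level was in iFIPC 3 (-3.55), and the other iFIPC samples were at -5.24 and -5.31; without iFIPC 3 the difference was 1.20 (adjusted p = 0.0252). Neuregulin 4, Nrg4, a ligand of Erbb4, was at -0.54, -0.79 and -0.10 in iISC organoids, -1.25, -1.02 and -0.96 in crypt organoids, and -2.52, -3.20 and -2.13 in FI organoids. In iFIPC organoids it was at -5.84, -3.47 and -5.00, below all FI samples. The iISC level was 4.29 ± 0.51 log2 above iFIPC (adjusted p = 0.0012 by limma), and iFIPC fell by 2.15 below FI (SE 0.51, 0.0158). Over MEF, Nrg4 rose by 5.81 ± 0.62 in iISC organoids and 3.29 ± 0.62 in iHep cells. The 3 Erbb4 probes of NM_010154 were at background but for 1 of them on 1 array (iFIPC 3, -3.58), Nrg3 was above background on 1 array, and no probe was named Nrg2. Another probe, called Erbb4 in the MEF and iHep files and by the Ensembl transcript ENSMUST00000082184 in the organoid files, was well above background on all 18 arrays (0.94 to 2.00). It was not read as Erbb4.

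AK019057 was at -2.63, -2.10 and -2.17 in MEFs, -3.84, -4.74 and -4.45 in iHep cells, and -2.90, -3.55 and -3.97 in iISC organoids. It was at -4.16, -3.23 and -2.33 in iFIPC and -2.01, -3.66 and -2.43 in FI organoids, and was well above background on no crypt array. It was at least 9.0-fold higher in iISC than in crypt organoids (adjusted p = 0.0076 by limma) and at least 15.4-fold lower in crypt than in FI organoids (0.00121). The Ereg probe was well above background on no iISC or crypt array, so the same contrast could not be read for Ereg.

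**Figure D5:**
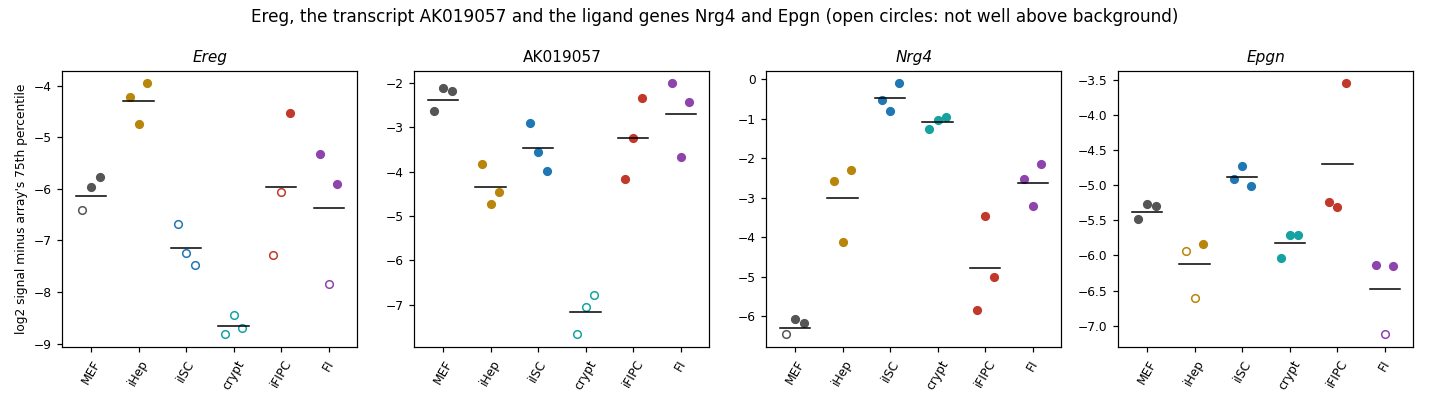
Levels (log2 signal minus the array's 75th percentile) of Ereg, AK019057, Nrg4 and Epgn on the 18 arrays; lines are group means and open circles were not well above background. AK019057 is open in the 3 crypt arrays and filled elsewhere, and the group means of Nrg4 are lowest in MEF and iFIPC.

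The rest of the pathway was read from 4 lists. Of 4 shedding genes, iISC organoids had 1 higher than MEF (Rhbdf2, 1.21 log2) and 2 lower (Rhbdf1, -1.72, and Adam17, -1.31). Of all genes 23.1% rose and 25.4% fell there. The median change in iISC organoids was -0.62 for the 4, beside -0.01 over all genes. In iHep cells Rhbdf2 rose (1.01), where 11.8% of all genes did. In iFIPC organoids Rhbdf2 rose (1.18) and Rhbdf1 fell (-1.53), where 20.2% of all genes rose and 23.3% fell. Adam10, a protease that releases Egf and Btc, was 1.04 ± 0.12 log2 higher in iFIPC than in FI organoids (adjusted p = 0.000702 by limma). Of 14 inhibitors of the receptors or of ERK signalling, 13 were tested and none rose in either kind of induced organoid over MEF. Of all genes 23.1% rose in iISC and 20.2% in iFIPC organoids. In iISC organoids 3 of 13 fell (Socs5, -4.04; Spry4, -3.52; Rnf41, -1.39), where 25.4% of all genes fell, and in iFIPC organoids 6 of 13 fell, where 23.3% did. In iHep cells 2 of 14 rose (Cblb, 1.98, and Errfi1, 1.59), where 11.8% of all genes rose. Another 4 fell, Spry2 (-2.07) and Lrig3 (-1.76) the most, where 15.8% did. In that comparison Cblb was well above background on 3 iHep arrays and 1 MEF array. It was thus tested only because it was detected in iHep cells. Lrig3, a transmembrane protein of the Lrig family, also differed between stages: it was 2.25 ± 0.28 log2 higher in iISC than in iFIPC organoids and 1.53 ± 0.28 higher in crypt than in FI organoids.

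Of 16 tested adaptors and kinases, none was called in iHep cells, where 27.7% of all genes were. In iISC organoids Sos2 (1.57) and Mapk3 (1.20) rose and Shc1 fell (-2.04), where 23.1% of all genes rose and 25.4% fell. In iFIPC organoids Sos2 (1.16) and Mapk3 (1.23) rose and Shc1 fell (-1.93), where 20.2% of all genes rose and 23.3% fell. Of 11 tested ERK-responsive genes, 3 rose and 2 fell in iHep cells (11.8% and 15.8% of all genes), 3 rose and 3 fell in iISC organoids (23.1% and 25.4%), and 4 rose and 2 fell in iFIPC organoids (20.2% and 23.3%). Myc rose by 2.82 log2 in iHep cells, 2.79 in iISC and 2.01 in iFIPC organoids over MEF. Phlda1 rose by 1.88, 1.93 and 2.81, and Etv5 fell by 1.97, 1.46 and 1.75. In iHep cells Etv4 also fell by 2.42 and Dusp6 rose by 2.04, and in iISC organoids Dusp4 rose by 1.53. Fosl1, a subunit of the AP-1 transcription factor, fell by 4.16 log2 in iISC organoids and was 3.16 ± 0.43 log2 higher in iFIPC than in FI organoids (adjusted p = 0.0017 by limma). In that comparison Ier3 was 1.63 higher and Myc fell by 1.04. No gene of the 4 lists was called between iISC and crypt organoids, where 3.26% of all genes were.

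Pearson correlation over the 17 samples and 14961 genes, which share the groups and the 2 array sets, gave the genes most like each member whose group means spanned at least 2 log2 units. For Erbb3 these were Grb7 (r = 0.994), an adaptor of ERBB receptors, and the junction gene Ocln (0.993). For Btc they were the epithelial splicing factor Esrp1 (0.969) and Elf3 (0.965), for Areg the nuclear receptor Pparg (0.949), and for Tgfa H2-D1 (0.977). For Nrg1 they were Mamdc2 (0.984), Mpeg1 (0.984) and the basement membrane gene Lama2 (0.983). Among members, Btc and Erbb3 ran together (r = 0.952), and Nrg1 and Erbb2 ran opposite (r = -0.952).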

How the data were processed

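RNA of 18 Cy3-labelled Agilent arrays was read from the deposited scanner files. Per the submitters' processing notes the authors ran Agilent Feature Extraction 9.5.1.1; per the file headers this holds for MEF and iHep arrays, while version 10.7.1.1 was used for organoids. The deposited processed signal is an intensity on a linear scale, background-subtracted, with no scaling between arrays. Deposited flags (well above background, outlier, saturated) are of another kind, 0 or 1. Outlier spots (62 to 107 per array) were left out. The 75th percentile signal was 712.6 to 1476.1, with 56.12% to 68.65% of probes flagged as detected above background; the number of arrays limits the precision. Intensities were taken to log2 and each array's 75th percentile subtracted. The probe with the highest mean stood for a gene, except that the AK019057 probe, which that rule takes for Ereg, was kept apart after its values were seen. Genes detected above background throughout 1 or more of the compared groups were tested with limma 3.58.1 (R 4.3.3), in a fit of 17 samples for comparisons with MEF and of 12 organoid samples for the rest; the code was tested on simulated data. The members and lists were chosen with earlier results of these data known. All members are named; per pathway list and comparison, named genes were taken from the 4 called ones with the largest change. Same-numbered organoid samples were not paired: 5 of 18 pairs correlated over 0.1. Alternatives are given below.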

Additional observations from a re-analysis of the deposited data

Results flagged for a closer look

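The stage change, adult against fetal, differed between induced and native organoids for 2 features of the EGF family region or family. For AK019057 the change (iISC minus iFIPC) minus (crypt minus FI) was 4.23 log2 (SE 0.76, adjusted p = 0.0152 by limma). It rests on the 3 crypt arrays, where the probe was not well above background. Leaving out each sample in turn gave 3.77 to 4.71. With slide as a term it was 4.72 (adjusted p = 0.152) and with normexp background correction 1.52 (0.0764). For Nrg4 the same difference was 2.75 log2 (SE 0.72, adjusted p = 0.0493): iISC exceeded iFIPC organoids by 4.29 log2, and crypt exceeded FI organoids by 1.54 log2 (adjusted p = 0.0683). Leaving out each sample in turn gave 2.22 to 3.40, with adjusted p of 0.0119 to 0.107. With slide as a term it was 1.63 (adjusted p = 0.356). When all probes were adjusted over together, the adjusted p was 0.0513.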

How the results depend on the processing

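Of 33 called changes over all members, Nrg4, Epgn and AK019057, none turned its sign: 157 of 185 values with 1 sample left out and 254 of 283 under the other alternatives stayed called. With fewer samples, members called ranged from 4 to 6 (iHep against MEF), 7 to 9 (iISC against MEF), 7 (iFIPC against MEF), 0 to 1 (iFIPC against FI, crypt against FI and the stage difference) and 0 (the rest). For iHep against MEF the second brightest probes and slide as a term each gave 3 in place of 5. For iFIPC against FI, normexp, no filter, slide as a random block and slide as a term gave 0. The replicate block, on numbers that do not pair the samples, gave 1 (Egf) for the stage difference and changed no other member count. Taking Ereg from its brighter probe, an alternative chosen after seeing the data, gave 1 for iISC against crypt, crypt against FI and the stage difference, and turned Ereg in iHep cells to -1.96. Differences near 0 turned sign. For Erbb2 in iISC against crypt they were 0.014 (quantile), 0.015 (series values) and 0.16 (slide as a term), and -0.17 to 0.12 without 1 sample. For Erbb3 they were 0.038, 0.036 and 0.41, and -0.23 to 0.32. Areg in iFIPC against FI was -0.36 with slide as a term. Median scaling moved the median of all genes to 0.50 (iISC against MEF) and 0.34 (iFIPC against MEF), and the called genes that rose from 47.6% to 64.5% and from 46.5% to 60.2%. Slide as a term cut all called genes from 3989 to 1644 (iHep against MEF), 443 to 28 (iISC against crypt), 1543 to 124 (iFIPC against FI), 1281 to 314 (crypt against FI), 1088 to 289 (iISC against iFIPC) and 770 to 69 (stage difference). The replicate block took the last to 535. The causes were not tested. Dim signal limits Ereg, Egf, Epgn and Nrg1 in organoids. Array number limits all values.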
